A study of Mus musculus with 2 samples.

Results

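The genes described here are 44 genes of the cell cycle and of DNA replication, named as a list of 45 symbols because Cdc2a is an older name of Cdk1. They were sought by symbol in the annotated table of 25697 probes. 40 were found by the symbol of the table, and Aurka was found through its RefSeq accession, where the table has an older symbol. The 41 genes on the array are members out of 17871 genes in all, and each was represented by its brightest probe. No probe was found for Mki67, Aurkb and Cenpf. 15 of the 41 serve DNA replication and S phase, and 26 are mitotic genes. Both arrays were hybridised with keratinocyte RNA from the skin of mice aged 3 months on a diet low in calcium. The KO array held RNA from mice with floxed VDR alleles (VDR fl/fl) and a Cre recombinase driven by K14, the promoter of a keratin of basal epidermal cells. The CON array held RNA from littermates that carried the same floxed alleles without Cre. VDR is the vitamin D receptor, and Cre removes it only in cells that use this promoter and in their descendants. Each array held RNA of 3 mice, so there is 1 array per group, no spread between mice and no test. All differences are a description of these 2 arrays.

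A dividing cell copies its DNA once in S phase and separates the copies in mitosis. Replication genes are switched on by E2F factors when the retinoblastoma proteins release them. Mitotic genes come on later, under the DREAM and MYB-MuvB complexes and FOXM1. In the epidermis, division is largely limited to the basal layer and to the follicle, and a cell that moves upward leaves the cycle.

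12147 of 25697 probes were detected on the KO array and 11994 on the CON array, where detection means that the signal outranked the background at a detection p under 0.05. The brightest probe for Vdr, the targeted gene, had a signal of 2928.3 on the KO array and 2626.3 on the CON array. The other Vdr probes had 1871.6 and 382.3 on the KO array and 1623.7 and 286.2 on the CON array. Vdr was thus not lower on the KO array by any probe, and probe positions were not analysed here. It does not check the labels, and every direction below rests on them as given. Ddx3y, a gene of the Y chromosome, had 258.1 on the KO array and 924.8 on the CON array, and Xist, transcribed from the inactive X chromosome, had 1943.3 and 994.1, so the pools also differed in sex-linked transcripts. Basal keratinocyte markers were present, with 8 of 8 detected on both arrays. Signals here are the normalized intensities deposited by the authors. A log2 difference is KO minus CON after background removal, and the difference in the deposited values, which keep the background, is given beside it where it matters.

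The cell cycle genes differed little between the arrays. In bulk RNA, fewer cells of a type and less RNA per cell cannot be told apart. Of the 41, 29 were detected on both arrays, 2 on the KO array alone and 10 on neither. Over the 31 detected on at least 1 array the median log2 difference was 0.07, against 0.00 over all 9540 detected genes. 2 of the 31 were at least 1.5-fold higher on the KO array and 0 were at least 1.5-fold lower, where 4.98% and 4.11% of all detected genes lay beyond these limits. 0 members reached 2-fold in either direction, where 1.28% of all detected genes were 2-fold higher and 1.11% were 2-fold lower. The median size of the difference was 0.16 over the 29 members detected on both arrays and 0.17 over all genes detected on both. All 29 lay within the central 95% of genes of like signal.

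**Figure D1:**
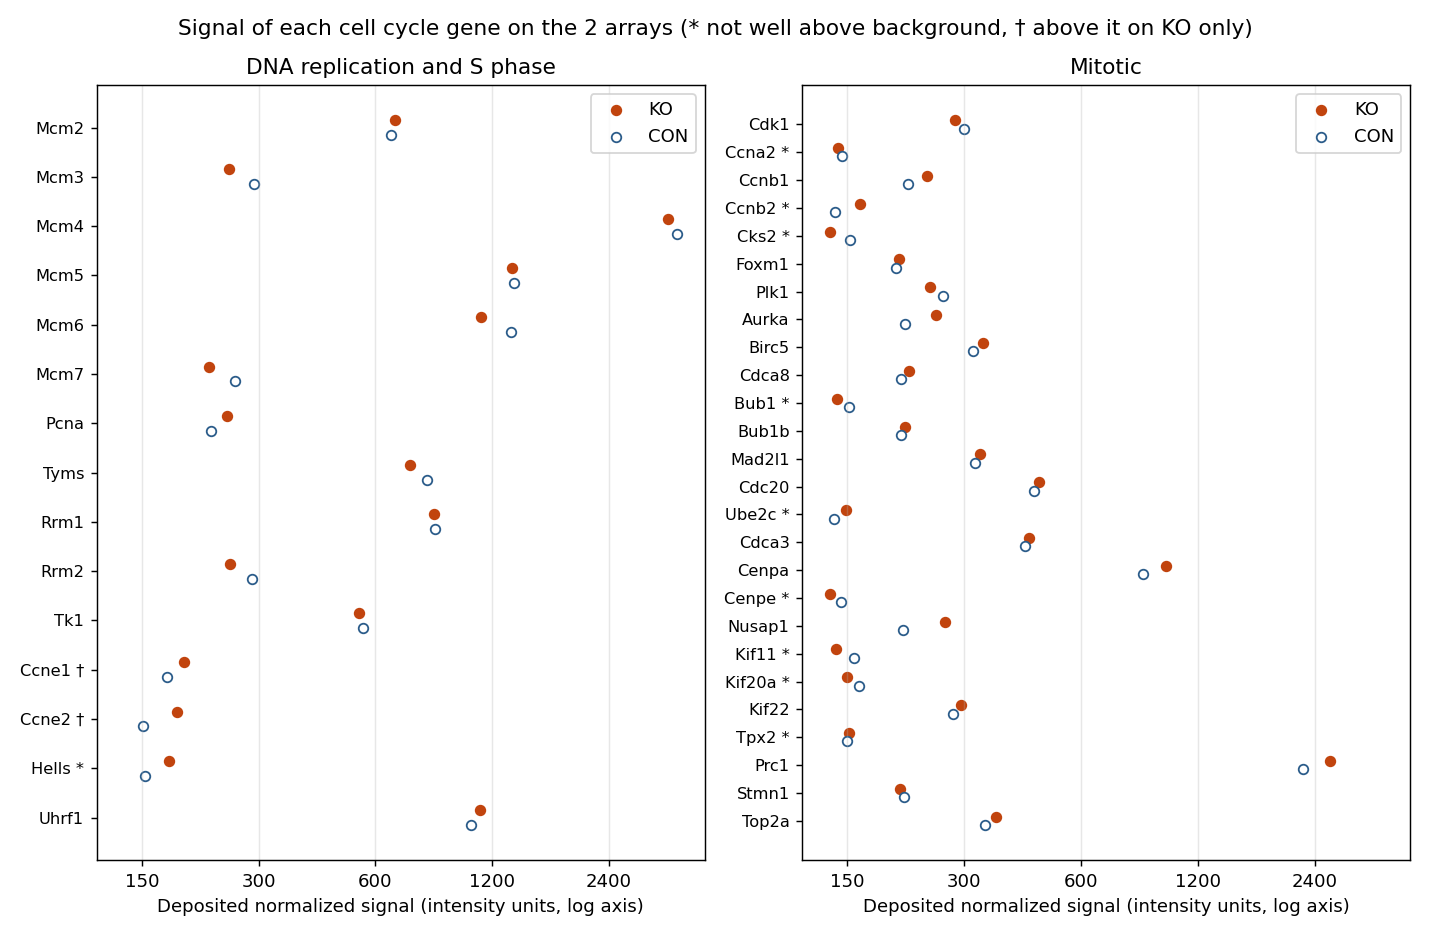
Deposited normalized signal (log axis) of each gene on the KO array (filled) and the CON array (open), with replication genes on the left and mitotic genes on the right. The symbols of each gene lie close together, and the widest gap is for Nusap1 (267.7 on KO, 208.9 on CON).

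Probes of the same gene, read on the same arrays, show how far measurements disagree. Over 2097 genes with several probes detected on both arrays, the SD of the log2 difference between probes of a gene was 0.24. Among the 9 members with several such probes, 3 had probes on both sides of 0. Mcm6 was one of these, with differences running between -0.32 and 0.18 over 3 probes, and Tk1 had -0.05 and 0.35. Tyms, with -0.20 and -0.21, and Cdc20, with 4 probes between 0.06 and 0.17, had probes on 1 side of 0.

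**Figure D2:**
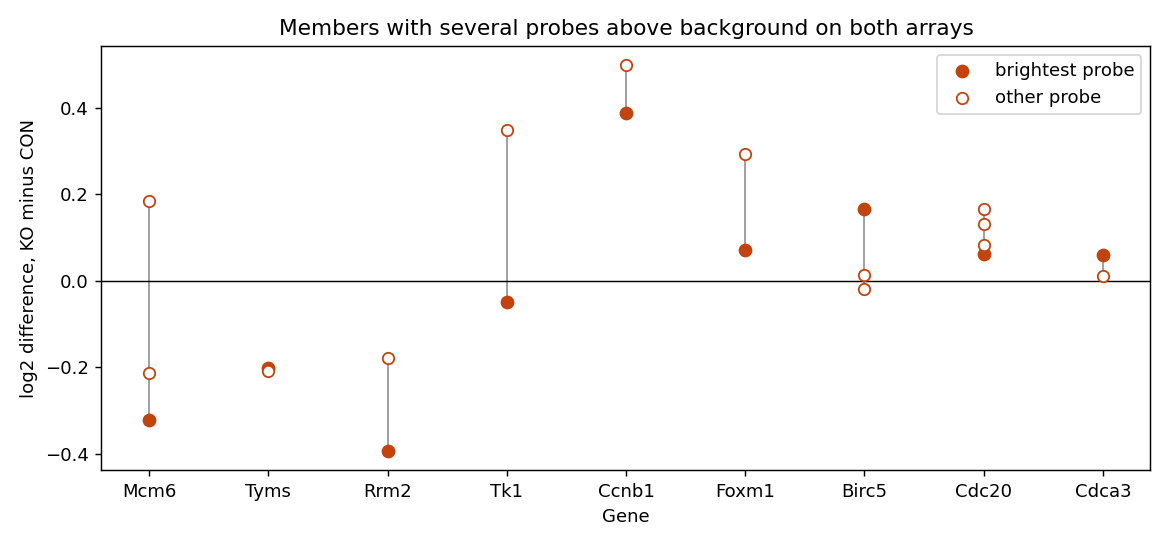
Log2 difference, KO minus CON, of every probe detected on both arrays for the 9 members that have several, with the brightest probe filled. Mcm6, Tk1 and Birc5 have probes on both sides of 0.

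Replication genes lay close to 0. Of the 14 detected, 5 were higher and 9 lower on the KO array, a share of 64.3% lower against 50.2% of all detected genes, with a median of -0.03 and a range of -0.51 to 0.34. The median was -0.02 in the deposited values. These 14 include Ccne1 and Ccne2, which passed through the KO array alone, and among the 12 detected on both arrays 3 were higher and 9 lower, with a median of -0.07.

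The MCM proteins form the helicase that unwinds DNA at the fork, and its 6 subunits are encoded by Mcm2 to Mcm7. Mcm7 had a signal of 224.0 on the KO array and 261.1 on the CON array, a log2 difference of -0.51 (1.43-fold lower). Mcm3 had 251.6 on the KO array and 291.0 on the CON array, a difference of -0.43. Mcm6 had 1122.4 on the KO array and 1343.4 on the CON array, a difference of -0.32. These were the lowest differences among the subunits, and in the deposited values the differences were -0.22 for Mcm7, -0.21 for Mcm3 and -0.26 for Mcm6. Mcm4 had 3401.3 on the KO array and 3597.0 on the CON array (-0.09), and Mcm5 had 1348.9 and 1363.7 (-0.02). Mcm2 had 675.6 on the KO array and 658.1 on the CON array (0.05), the only subunit above 0, and it lay below 0 (-0.02) when the arrays were scaled by their medians. The helicase subunits thus ran from -0.51 to 0.05.

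4 members make DNA building blocks. Rrm2, the regulated subunit of ribonucleotide reductase, had 252.7 on the KO array and 288.4 on the CON array, a difference of -0.39. Rrm1, the large subunit of the same enzyme, had 848.9 on the KO array and 854.5 on the CON array, a difference of -0.01. Tyms, which makes thymidylate, had 736.8 on the KO array and 816.8 on the CON array, a difference of -0.20. Tk1, the thymidine kinase of dividing cells, had 544.8 on the KO array and 557.7 on the CON array, a difference of -0.05 (0.11 as the mean over its probes detected on at least 1 array). Rrm2 and Tyms were lower by every probe detected on both arrays, 2 for each gene.

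Pcna, the sliding clamp of the polymerases, had 248.9 on the KO array and 225.8 on the CON array, a difference of 0.34. Uhrf1, which carries DNA methylation over to the new strand, had 1116.4 on the KO array and 1054.6 on the CON array, a difference of 0.11. Cyclin E drives entry into S phase, and both of its genes were detected on the KO array alone. Ccne1 had 193.0 on the KO array and 173.7 on the CON array, a log2 difference of 0.15 in these deposited values and at least 1.2-fold higher after background removal. Ccne2 had 184.3 on the KO array and 150.8 on the CON array, 0.29 in the deposited values and at least 1.08-fold higher after background removal. Bounds hold only on the background-removed scale, where the KO value is set against the lowest detected value of the CON array. Detection on the KO array alone favours a higher value there, so the direction of such a gene is no separate result. A bound that pointed the other way was set to 0. Hells, a chromatin remodeller, was not well above background on either array, with 175.8 on the KO array and 152.6 on the CON array.

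Mitotic genes lay slightly above 0. Of the 17 detected, all on both arrays, 14 were higher and 3 lower on the KO array, a share of 82.4% higher against 48.7% of all detected genes, with a median of 0.13 (0.06 in the deposited values, where again 14 were higher, against 48.8% of all detected genes) and a range of -0.24 to 0.83. With the 9 mitotic genes that were not well above background on either array added, 17 of 26 were higher and 9 lower, with a median of 0.07.

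Nusap1 and Aurka were the 2 members past 1.5-fold. Nusap1, a microtubule-binding protein of the spindle, had 267.7 on the KO array and 208.9 on the CON array, a difference of 0.83 (1.77-fold). The other probes of Nusap1 were not well above background on either array and had -0.08 and -0.11, so its difference rests on a single probe. Aurka, a kinase of the spindle poles, had 253.4 on the KO array and 211.1 on the CON array, a difference of 0.62 (1.54-fold). Both were dim, and in the deposited values their differences were 0.36 and 0.26, neither past 1.5-fold, where 1.36% of all detected genes were 1.5-fold higher and 0.891% were 1.5-fold lower.

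The kinase that starts mitosis, its cyclins and its regulators had differences of both signs. Cdk1, the kinase itself, had 283.3 on the KO array and 299.2 on the CON array, a difference of -0.16. Its partner cyclin Ccnb1 had 241.1 on the KO array and 215.4 on the CON array, a difference of 0.39, and its second probe gave 0.50. Foxm1, a transcription factor of mitotic genes, had 203.9 on the KO array and 199.6 on the CON array, a difference of 0.07. Plk1, a kinase of mitotic entry and exit, had 244.5 on the KO array and 263.8 on the CON array, a difference of -0.24, the lowest of the detected mitotic genes. Ccna2, Ccnb2 and the kinase subunit gene Cks2 were not well above background on either array, with 141.9, 161.5 and 135.3 on the KO array and 145.3, 139.0 and 151.9 on the CON array.

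The chromosomal passenger complex corrects the attachment of chromosomes to the spindle. Its subunit genes Birc5 (survivin) and Cdca8 (borealin) both had a difference of 0.16 by their brightest probe, and the mean over the 3 detected probes of Birc5 was 0.05. Birc5 had 335.7 on the KO array and 315.8 on the CON array, and Cdca8 had 215.7 and 205.8. Of the spindle checkpoint, Mad2l1 had 329.9 on the KO array and 320.3 on the CON array (0.07), and Bub1b had 211.6 and 206.0 (0.09). Cdc20, the activator of the anaphase-promoting complex that this checkpoint holds back, had 466.6 on the KO array and 454.1 on the CON array (0.06). Cdca3, a trigger of mitotic entry, had 440.7 on the KO array and 430.4 on the CON array (0.06). Bub1 and Ube2c, the ubiquitin-conjugating enzyme of that complex, were not well above background on either array, with 140.6 and 149.1 on the KO array and 151.1 and 138.8 on the CON array.

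The brightest mitotic genes, Prc1 and Cenpa, were modestly higher on the KO array, while the next brightest, Cdc20 and Cdca3, differed by 0.06 each. Prc1, which bundles microtubules at the spindle midzone, had 2627.6 on the KO array and 2237.9 on the CON array, a difference of 0.25 (0.23 in the deposited values). Cenpa, the histone H3 variant of the centromere, had 993.5 on the KO array and 864.3 on the CON array, a difference of 0.25 (0.20 in the deposited values). Top2a, which untangles DNA before chromosomes part, had 362.8 on the KO array and 339.6 on the CON array, a difference of 0.17. At these signals background removal changed the difference of Prc1 and Cenpa by little. The motor gene Kif22 had 293.6 on the KO array and 281.1 on the CON array (0.13), and Stmn1, which destabilises microtubules, had 205.5 and 209.7 (-0.07). Cenpe, Kif11, Kif20a and Tpx2, which serve the kinetochore and the spindle, were not well above background on either array, with signals of 135.3 to 151.3 on the KO array and 144.1 to 160.6 on the CON array.

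**Figure D3:**
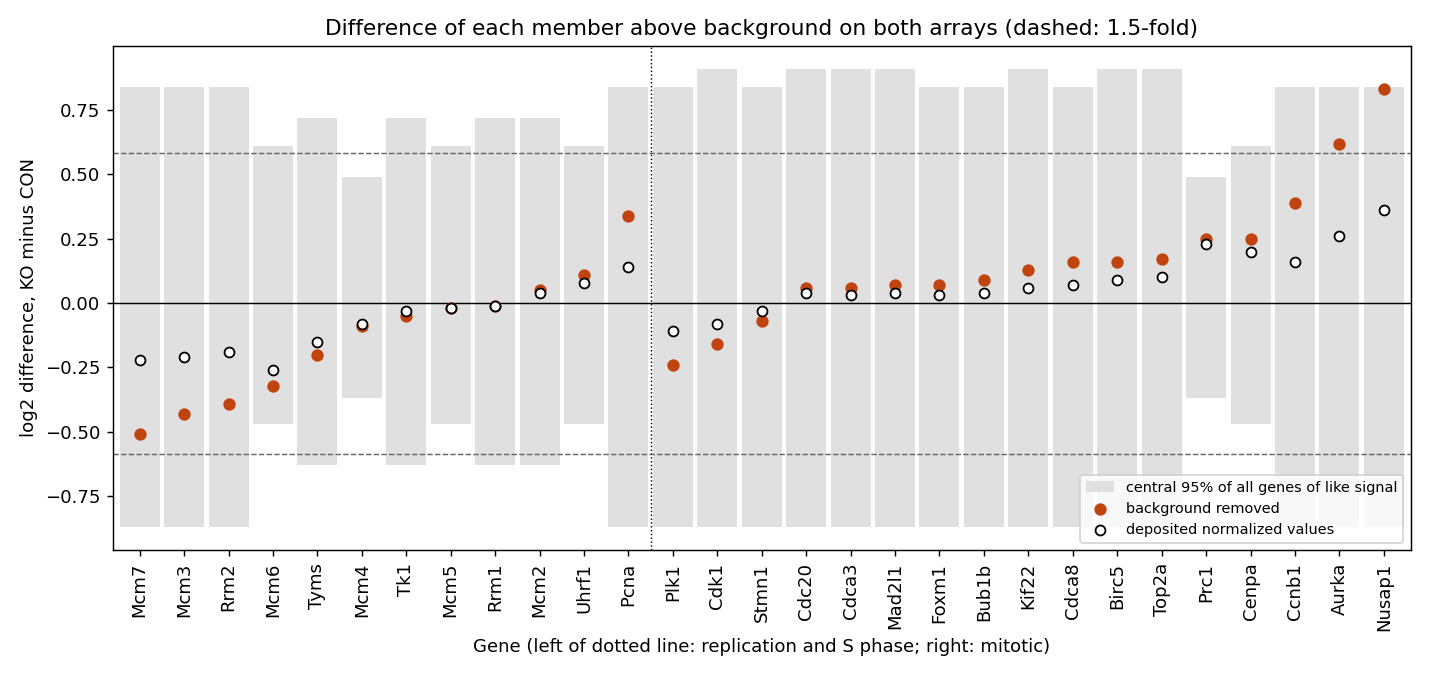
Log2 difference, KO minus CON, of the 29 members detected on both arrays, after background removal (filled) and in the deposited values (open). Grey bars span the central 95% of all genes of like signal, and all filled points lie within them, with Nusap1 (0.83) next to the upper edge (0.84).

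The replication median was 0.16 below the mitotic one on the log2 scale (0.09 in the deposited values). Promoters of the members were set beside these values, since replication genes are known for E2F sites and mitotic genes for the cell cycle homology region (CHR) and CCAAT boxes. 34 of the 41 genes matched RefSeq promoters of the build GRCm38.p6, taken with 250 bases before and 30 after the start, and for a gene with several starts the one listed first. The E2F letters were TTTGGCGC, TTTGCCGC, TTTCGCGC and TTTCCCGC, the CHR letters were TTTGAA and TTCGAA, and the box was CCAAT, all on both strands, with overlaps allowed. E2F letters were in 5 of 13 replication promoters (38.5%) and 1 of 21 mitotic promoters (4.76%), against 2.16% of 27025 promoters. CHR letters were in 2 of 13 replication promoters (15.4%) and 12 of 21 mitotic promoters (57.1%), against 18.6% of all. CCAAT was in 9 of 13 (69.2%) and 18 of 21 (85.7%), against 36.6% of all.

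Shown here are the replication genes with E2F letters and the lowest differences (Mcm7, Mcm3 and Mcm6), the mitotic genes with CHR letters and the highest (Prc1, Cenpa and Top2a), both among genes detected on both arrays, and Nusap1, whose difference was the highest of all detected members and whose window holds none of the motifs. They were chosen after differences and matches were seen: a first choice, the 3 genes of each role with the most extreme differences, held few matches among the mitotic genes and was replaced by genes that have one. Capitals mark E2F, CHR and CCAAT letters on either strand, 5′ to 3′ along the gene. Mcm7 is at chr5:138171854-138172133 (minus strand), Mcm3 at chr1:20820283-20820562 (minus strand), Mcm6 at chr1:128359676-128359955 (minus strand), Prc1 at chr7:80294201-80294480 (plus strand), Cenpa at chr5:30666636-30666915 (plus strand), Top2a at chr11:99024160-99024439 (minus strand) and Nusap1 at chr2:119618048-119618327 (plus strand).
Mcm7: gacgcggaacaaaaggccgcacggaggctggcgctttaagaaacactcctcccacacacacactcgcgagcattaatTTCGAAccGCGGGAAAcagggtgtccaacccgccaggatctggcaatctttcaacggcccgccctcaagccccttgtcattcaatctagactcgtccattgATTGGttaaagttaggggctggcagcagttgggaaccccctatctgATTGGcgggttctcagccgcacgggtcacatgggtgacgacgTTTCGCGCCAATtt
Mcm3: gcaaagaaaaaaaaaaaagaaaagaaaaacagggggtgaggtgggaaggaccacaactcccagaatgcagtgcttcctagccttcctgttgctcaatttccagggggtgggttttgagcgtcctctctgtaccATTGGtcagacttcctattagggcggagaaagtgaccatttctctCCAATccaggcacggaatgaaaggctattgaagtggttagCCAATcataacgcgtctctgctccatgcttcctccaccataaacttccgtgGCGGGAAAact
Mcm6: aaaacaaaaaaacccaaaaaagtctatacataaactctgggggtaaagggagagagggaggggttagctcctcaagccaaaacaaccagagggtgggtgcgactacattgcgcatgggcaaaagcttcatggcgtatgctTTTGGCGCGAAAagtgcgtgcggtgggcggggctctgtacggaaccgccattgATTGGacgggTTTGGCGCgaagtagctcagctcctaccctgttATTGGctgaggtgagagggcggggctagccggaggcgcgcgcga
Prc1: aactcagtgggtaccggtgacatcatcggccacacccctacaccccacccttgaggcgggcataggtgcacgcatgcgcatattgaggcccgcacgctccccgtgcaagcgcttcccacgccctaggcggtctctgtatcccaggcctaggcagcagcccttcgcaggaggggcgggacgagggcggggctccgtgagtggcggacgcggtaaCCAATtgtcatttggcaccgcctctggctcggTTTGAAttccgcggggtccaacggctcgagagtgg
Cenpa: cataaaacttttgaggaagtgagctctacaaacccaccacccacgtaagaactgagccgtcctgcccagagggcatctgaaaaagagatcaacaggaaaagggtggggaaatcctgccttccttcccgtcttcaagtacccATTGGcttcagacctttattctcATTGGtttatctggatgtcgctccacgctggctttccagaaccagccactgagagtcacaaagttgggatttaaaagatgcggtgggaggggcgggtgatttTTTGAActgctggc
Top2a: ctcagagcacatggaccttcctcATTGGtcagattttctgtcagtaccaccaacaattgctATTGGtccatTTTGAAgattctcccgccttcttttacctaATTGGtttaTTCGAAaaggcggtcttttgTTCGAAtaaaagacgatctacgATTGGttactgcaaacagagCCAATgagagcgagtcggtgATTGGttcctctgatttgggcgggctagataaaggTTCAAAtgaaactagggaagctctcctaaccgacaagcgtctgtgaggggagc
Nusap1: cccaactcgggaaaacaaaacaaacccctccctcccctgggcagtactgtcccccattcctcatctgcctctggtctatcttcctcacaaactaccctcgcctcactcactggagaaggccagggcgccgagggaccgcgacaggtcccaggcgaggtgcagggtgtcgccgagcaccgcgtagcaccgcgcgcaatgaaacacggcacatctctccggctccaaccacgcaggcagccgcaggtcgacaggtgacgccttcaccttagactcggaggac
Of the 2 E2F matches of Mcm7, the one nearer the start overlaps a CCAAT box and the other stands upstream beside a CHR match. The E2F match of Mcm3 stands near the start, and Top2a holds 4 CHR matches and 6 CCAAT boxes. Among replication genes detected on both arrays, the 4 with E2F letters had differences of -0.51 to -0.02 and a median of -0.38, and the 7 without had -0.39 to 0.34 and a median of -0.01. The 4 are Mcm3, Mcm5, Mcm6 and Mcm7, all subunits of the same helicase, so this split largely sets helicase genes against others. In the deposited values these 4 had -0.21, -0.02, -0.26 and -0.22. Of the other subunits, Mcm2 is among the 7 without E2F letters, and Mcm4 matched no promoter. Among mitotic genes, the 8 with CHR letters had a median of 0.15 and the 7 without a median of 0.16. These splits were made after the values were seen and were not tested. A match is a description of the letters and no sign of binding.

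Other genes of the cycle, from wider lists, are given by list. Origin licensing and firing genes had 19 of 22 detected, with 9 higher and 10 lower, a median of -0.02, and 0 past 1.5-fold either way. The brightest of them were Rpa1, which coats single-stranded DNA (-0.14), and Gins4, a subunit of the active helicase (-0.02). Genes of the polymerases, the fork and nucleotide supply had 22 of 27 detected, with 8 higher and 14 lower, a median of -0.07 and 0 past 1.5-fold. The brightest of them were Rfc1 (0.01) and Rfc2 (-0.18), subunits of the clamp loader. Other spindle, kinetochore and cytokinesis genes had 25 of 44 detected, with 16 higher and 9 lower and a median of 0.14, and with no filter on detection 23 of 44 were higher, with a median of 0.02. In that list 2 genes were at least 1.5-fold higher, the microtubule depolymerase Kif2c (1.79-fold) and the centriole kinase Plk4 (at least 1.58-fold after background removal), and 2 were at least 1.5-fold lower, the phosphatase Cdc25b (1.79-fold) and the centromere protein Cenpm (1.54-fold). These directions are mixed, and in the deposited values none of the 4 differed by 1.5-fold, with 0.35 for Kif2c, 0.28 for Plk4, -0.38 for Cdc25b and -0.26 for Cenpm. Condensin and cohesin genes had 10 of 11 detected and a median of -0.06, with 1 past 1.5-fold, the cohesin core gene Smc3 (0.73). In the deposited values Smc3 had 0.32, short of 1.5-fold.

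**Figure D4:**
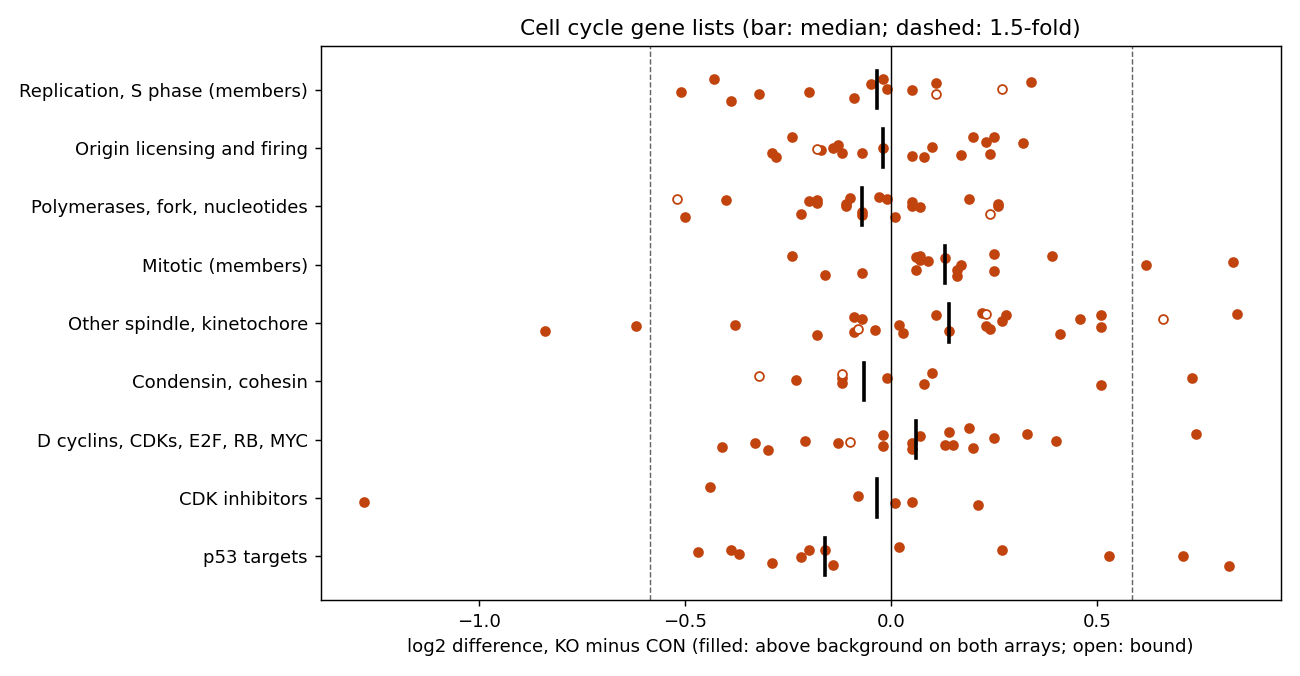
Log2 difference, KO minus CON, of each detected gene in the member groups and the wider cell cycle lists, with the median as a bar and bounds as open points. Medians lie between -0.16 (p53 targets) and 0.14 (other spindle and kinetochore genes), and the CDK inhibitor Cdkn1c stands apart at -1.28.

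Of the genes that decide on entry into the cycle, 20 of 24 were detected, with 12 higher and 8 lower and a median of 0.06. Of these, 1 was past 1.5-fold, the transcription factor E2f3 (0.74), which had 0.38 in the deposited values, short of 1.5-fold. Ccnd1 (cyclin D1) had a difference of -0.41, and its signal before normalization was 3678.9 on the KO array and 4993.0 on the CON array. Among 6 detected inhibitors of cyclin-dependent kinases, Cdkn1c (p57), which holds cells out of the cycle, was 2.42-fold lower, the only gene of these cell cycle lists past 2-fold. Its signal before normalization was 189.1 on the KO array and 289.4 on the CON array, and its difference was -1.28 after background removal and -0.62 in the deposited values. Cdkn1a (p21), the inhibitor induced by p53, had 9224.5 on the KO array and 8208.2 on the CON array before normalization, a difference of 0.21. Among 13 detected p53 targets the median was -0.16, and 2 were at least 1.5-fold higher, Trp53inp1 (0.82) and the kinase gene Plk2 (0.71). In the deposited values Trp53inp1 had 0.76 and Plk2 had 0.58, the latter just short of 1.5-fold.

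Markers of cell types differed between the arrays in several lists. Summed signals here are deposited signals over all markers of a list on the array, detected or not. Folds and log2 differences of markers are those after background removal. In the deposited values, Krt31 (-0.36), Krt35 (-0.54), Lhx2 (-0.39), Pmel (-0.57), H2-Eb1 (0.36), Tgm3 (0.50), Cidea (0.57) and Cd3g (-0.56) fell short of 1.5-fold. The other markers counted below as at least 1.5-fold apart were so in the deposited values too. Hair shaft and inner root sheath markers had 10 of 12 detected, 5 on both arrays and 5 on the CON array alone. All 10 were lower on the KO array, 7 of them by at least 1.5-fold. The 5 on both arrays ran from -2.85 (Krt71) to -0.08 (Gata3). Detection on the CON array alone favours a lower KO value, so the direction of such markers is no separate result. The summed signal was 6211.5 on the KO array and 7647.4 on the CON array. Gata3 alone gave 4361.8 and 4618.6 of these, so the sum mostly follows that gene. Bulge and hair germ markers had 7 of 8 detected, 5 on both arrays and 2 (Lgr5 and Lhx2) on the CON array alone. Of the 7, 5 were lower, 4 of them by at least 1.5-fold, and 2 were higher (Sox9 0.19 and Tcf7l1 0.29). The summed signal was 2989.1 on the KO array and 3764.6 on the CON array. Of 8 markers of the hair matrix, the dividing cells at the base of a growing follicle, Dlx3 alone was detected on both arrays (0.15), and Shh, Lef1, Msx2, Foxn1 and Dlx4 were not well above background on either. The summed signal of the 8 was 1903.9 on the KO array and 1953.3 on the CON array, and that of the 3 detected on at least 1 array was 1171.7 on the KO array and 1147.9 on the CON array. Basal keratinocyte markers had 0 of 8 past 1.5-fold and a median of -0.14, with 108202.1 on the KO array and 119852.7 on the CON array, and suprabasal markers had a median of 0.06. Granular and cornified layer markers had 7 of 7 detected, 5 higher and 2 lower, with 45320.9 on the KO array and 40373.0 on the CON array. Of these, 4 were at least 2-fold higher, Lce1d (2.46), Lce1i (2.08), Sprr4 (1.91) and Tgm3 (1.02). In the deposited values they had 1.95, 1.21, 1.72 and 0.50, so Tgm3 was not 2-fold higher there. The others, Flg2 (0.12), Lor (-0.01) and Ivl (-0.13), differed little. The marker lists were chosen with earlier results of these data known, so the count of 4 depends on that choice. Langerhans cell markers had 5 of 7 detected, all higher, 4 by at least 1.5-fold, with 7920.1 on the KO array and 4681.8 on the CON array. Melanocyte markers had 4 of 6 detected, Dct on both arrays (-3.37) and 3 on the CON array alone. Of the 4, 3 were at least 1.5-fold lower. Tyr (-0.29) and Mitf (0.41) were not well above background on either array. The summed signal was 903.3 on the KO array and 1545.0 on the CON array, and over the 4 detected 610.8 on the KO array and 1260.2 on the CON array. Dermal fibroblast markers had 4 of 8 detected, 3 on both arrays and Col1a1 on the CON array alone. Of the 4, 2 were at least 1.5-fold lower. The summed signal was 1782.1 on the KO array and 2515.2 on the CON array, and over the 4 detected 1187.8 on the KO array and 1908.1 on the CON array. Col1a2, Col3a1, Lum and Pdgfra of that list were not well above background on either array. Sebaceous gland markers had 5 of 7 detected, 3 higher and 2 lower, with Cidea (0.97) and Mgst1 (0.79) at least 1.5-fold higher. T cell markers had 5 of 6 detected, 1 higher and 4 lower, with Cd3g (-0.94) at least 1.5-fold lower. Endothelial markers had 3 of 6 detected, each on 1 array alone, with a median of 0.06. The part of these cells in the values of the cell cycle genes was not tested.

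**Figure D5:**
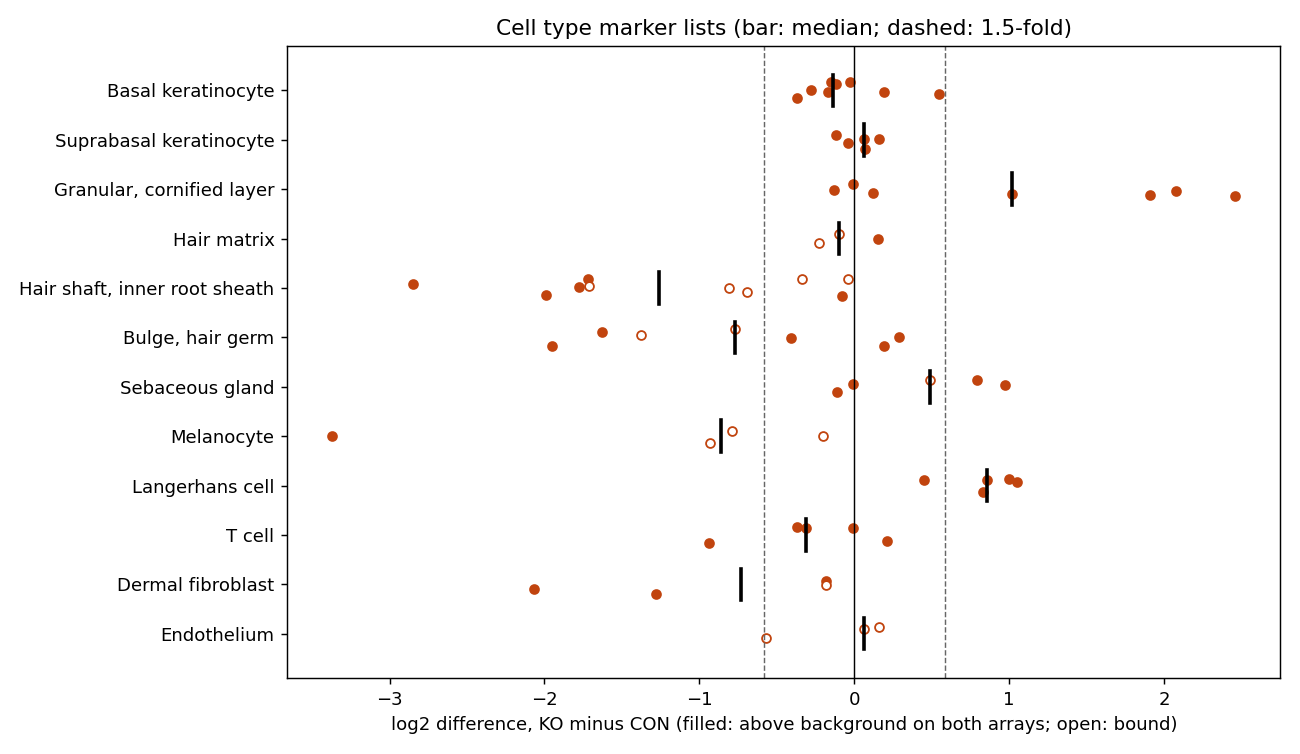
Log2 difference, KO minus CON, of each detected cell type marker, with the list median as a bar and bounds as open points. All detected hair shaft, melanocyte and fibroblast markers lie left of 0. The open points among them passed detection through the CON array alone, which favours that side. All detected Langerhans cell markers lie right of 0, while bulge, granular layer and basal markers lie on both sides.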

How the data were processed

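Keratinocyte RNA was measured on 2 Illumina bead arrays, 1 per group, grouped by the genotype labels. The deposited tables hold, per the file headers, an average intensity per probe, non-normalized and normalized by the authors, with GenomeStudio 2011.1 per the submitters' processing notes. No label or header states how the authors normalized. In both deposited tables the detection p-values were out of register with the signals (Spearman's rho -0.0073 for KO and -0.0053 for CON) and were reassigned by signal rank, a step chosen after the data were seen. Normexp background removal (limma 3.58.1, R 4.3.3, offset 16), log2 and quantile normalization gave the log2 differences. The background model had a mean of 140.9 (SD 10.1) for KO and 143.2 (SD 10.3) for CON. The normalization was tested on simulated data with known changes. These changes were set only in detected probes other than the dimmest, so the test does not cover the dimmest signals. Symbols were updated through GRCm38.p6, which matched 25376 probes. Genes detected (p under 0.05) on at least 1 array were used. The number of arrays limits the precision. The members and lists were chosen with earlier results of these data known. All members were named, with Vdr, and in each wider cell cycle list the genes at least 1.5-fold apart, up to 4, or the 2 brightest. The same rule was set for the marker lists, where some of its genes are left unnamed. Ccnd1, Cdkn1a, Krt31, Krt35, the sex-linked genes and the undetected or single markers lie outside that rule and were named after their values were seen. The sequences printed were also chosen after differences and motif matches were seen.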

Additional observations from a re-analysis of the deposited data

How the results depend on the processing

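The medians of all members, of the replication genes and of the mitotic genes, and the gap between the last pair, moved by less than 0.1 on the log2 scale under every alternative run, namely no background correction, an offset of 50, the deposited normalized values, median scaling, the mean over detected probes, detection on both arrays, no filter on low signal, and leaving out Aurka (added after seeing the data). This limit is of the size of the medians themselves, so it does not show that they are stable. The mitotic median was 0.13 after background removal, 0.05 without background correction and 0.06 in the deposited values. The replication median minus the mitotic one was -0.16, -0.08 and -0.09 in the same order. The number of members at least 1.5-fold higher on the KO array was 2, and it was 0 without background correction, 0 with an offset of 50, 0 in the deposited normalized values, 1 without Aurka and 3 with no filter on low signal. With the lower folds, Nusap1 stood at 0.30 without background correction and 0.56 with an offset of 50. No member was 1.5-fold lower, or 2-fold apart either way, under any of these settings. Over all detected genes, 475 were at least 1.5-fold higher and 392 lower, against 130 and 85 in the deposited values. Median scaling moved the median of all genes to -0.04, and Mcm2 to -0.02, and averaging probes moved Tk1 to 0.11, the only members whose sign turned under the alternatives of background, scaling or probe choice. No paired analysis was possible because each group has 1 array. With 12 of the 29 members detected on both arrays in the dimmest of 5 signal classes, where the SD over all genes was 0.43, small differences of these genes could not be resolved.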
